A study of Arabidopsis thaliana with 24 samples.

Results

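The late embryogenesis abundant (LEA) protein genes of Arabidopsis thaliana were followed in rosette leaves of wild-type (WT) plants and of grf6 grf8 mutant plants during dehydration. The family was taken as the 51 genes numbered LEA1 to LEA51, dehydrins included, chosen by gene identifier alone, out of the 27664 genes in the files; all 51 were present. Poly(A)-selected RNA was sequenced from 24 libraries in 6 groups of 4: WT and grf6 grf8, each at 0, 2 and 4 h of dehydration. Plants spent 12 days on plates and then 12 days in soil, so that leaves of every group came from plants aged 24 days. GRF6 and GRF8 encode 14-3-3 proteins, adaptors that bind phosphorylated client proteins. The grf6 and grf8 alleles are not given in the sources used here. No group of watered plants at 2 or 4 h was among the samples, so dehydration and time of day cannot be told apart. The labels number the replicates without saying whether they came from separate plants, so p-values measure the spread between these libraries, which may in part be technical.

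LEA proteins are small, very hydrophilic and mostly disordered in solution. They accumulate late in seed maturation, when the embryo dries, and many are also made in leaves during drought, cold or treatment with abscisic acid (ABA), the hormone of water deficit. Dehydrins carry lysine-rich segments that bind membranes and shield enzymes, COR15 proteins protect chloroplast membranes, and the EM proteins belong to seeds. Many of these genes carry ABA-responsive elements (ABREs, with the core ACGTG), bound by the ABF and ABI5 bZIP factors, or dehydration-responsive elements (DREs, with the core CCGAC), bound by the DREB and CBF factors.

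The libraries held 17365357 to 22380487 counts each. GRF6 lay at 316 to 1803 CPM (counts scaled to a common library total) in the 12 WT libraries and at 43.7 to 388 CPM in the 12 mutant libraries, and at each time every mutant library was below every WT library. GRF8 was lower in every mutant library at 0 and 2 h (75.6 to 90.3 CPM, against 102 to 346 CPM in WT), while at 4 h the mutant range of 46.2 to 78.7 CPM overlapped the WT range of 68.0 to 129 CPM. The leaf label was checked on 9 photosynthesis genes (Rubisco small subunits, light-harvesting proteins and Rubisco activase), all tested, whose summed level was 50309 to 68962 CPM at 0 h and 6945 to 27259 CPM in WT and 17853 to 24028 CPM in the mutant at 4 h. Of these genes 6 fell in WT and 7 in the mutant by 4 h, where 22.2% and 23.1% of all genes tested fell. The part of these photosynthesis genes in the LEA results was not tested. A score of 17 cell-division genes (cyclins, B-type CDKs and MCM helicase subunits; the mean log2 CPM of the 16 tested ones) set 3 libraries apart: WT 4 h replicate 4 scored 2.08 and grf6 grf8 4 h replicates 1 and 2 scored 2.16 and 1.7. WT 2 h replicate 4 (0.912) and grf6 grf8 0 h replicate 1 (0.858) came next, and the other 19 libraries scored between -1.15 and 0.311. These 5 libraries touch the LEA values below. In whole leaves, fewer cells of a type and less RNA per cell cannot be told apart.

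The 250 bases before the annotated gene start are printed for 6 members that show the range of behaviour described below: LEA7 and RAB18, which were still rising at 4 h; COR15A and COR47, which were high by 2 h; HIRD11, the member that fell; and EM1, a seed gene near 0 in these leaves. Sequences, and all gene positions given here, are those of RefSeq's TAIR10.1, each sequence read along each gene's own strand: LEA7 chr1:19619474-19619723 (plus strand), RAB18 chr5:26519448-26519697 (minus), COR15A chr2:17712331-17712580 (minus), COR47 chr1:7086874-7087123 (minus), HIRD11 chr1:20310851-20311100 (minus) and EM1 chr3:19214472-19214721 (plus). Capitals mark ACGTG and CCGAC on either strand, so that CACGT and GTCGG are the same motifs read on the other strand.
LEA7: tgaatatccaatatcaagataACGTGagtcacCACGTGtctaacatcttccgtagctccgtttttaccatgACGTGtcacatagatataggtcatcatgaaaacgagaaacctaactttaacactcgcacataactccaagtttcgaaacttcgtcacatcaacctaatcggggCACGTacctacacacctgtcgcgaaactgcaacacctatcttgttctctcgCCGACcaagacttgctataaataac
RAB18: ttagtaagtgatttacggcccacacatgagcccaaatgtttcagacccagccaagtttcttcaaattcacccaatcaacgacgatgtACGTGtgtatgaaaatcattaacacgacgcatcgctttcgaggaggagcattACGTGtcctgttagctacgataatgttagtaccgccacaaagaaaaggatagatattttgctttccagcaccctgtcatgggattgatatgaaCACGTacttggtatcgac
COR15A: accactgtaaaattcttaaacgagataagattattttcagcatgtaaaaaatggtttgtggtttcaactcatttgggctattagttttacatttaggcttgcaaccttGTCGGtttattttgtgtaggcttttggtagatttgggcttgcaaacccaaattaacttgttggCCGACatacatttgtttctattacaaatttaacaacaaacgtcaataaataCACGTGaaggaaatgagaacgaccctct
COR47: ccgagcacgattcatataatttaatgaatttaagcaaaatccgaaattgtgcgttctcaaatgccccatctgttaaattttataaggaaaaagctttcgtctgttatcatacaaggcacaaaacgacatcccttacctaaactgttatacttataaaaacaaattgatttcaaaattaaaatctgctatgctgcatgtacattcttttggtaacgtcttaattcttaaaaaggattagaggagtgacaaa
HIRD11: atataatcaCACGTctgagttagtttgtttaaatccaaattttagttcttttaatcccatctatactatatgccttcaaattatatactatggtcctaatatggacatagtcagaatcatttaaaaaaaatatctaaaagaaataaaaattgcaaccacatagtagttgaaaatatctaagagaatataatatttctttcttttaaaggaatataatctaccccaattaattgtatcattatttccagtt
EM1: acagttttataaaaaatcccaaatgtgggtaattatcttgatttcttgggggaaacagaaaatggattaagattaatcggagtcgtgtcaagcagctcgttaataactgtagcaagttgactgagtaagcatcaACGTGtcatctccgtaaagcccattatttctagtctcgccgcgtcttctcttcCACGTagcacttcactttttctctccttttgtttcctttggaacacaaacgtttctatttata

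Counted on both strands, with CACGTG counting once per strand, the LEA7 window held 5 ACGTG and 1 CCGAC, that of RAB18 held 3 and 0, that of COR15A 2 and 2, that of HIRD11 1 and 0, that of EM1 2 and 0, and that of COR47 none of either. At least 1 ACGTG stood in 36 of the 51 LEA windows (70.6%), against 22.91% of the 27443 windows of the same length over all nuclear protein-coding genes. CCGAC stood in 18 of 51 (35.3%), against 11.97% of all windows. Of the 12 members too low to be tested, 6 windows held ACGTG and 2 held CCGAC. A match is a description of these letters and not a binding site.

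As a family, the LEA genes took 0.701% ± 0.117 of all counts in WT leaves at 0 h (mean ± SD, n = 4 libraries in this and every group), 2.23% ± 0.451 at 2 h and 2.49% ± 0.502 at 4 h. In grf6 grf8 the shares were 0.75% ± 0.114, 2.27% ± 0.234 and 2.78% ± 0.405. Neither genotype's range at 0 h overlapped its ranges at 2 or 4 h, and the ranges of the genotypes overlapped at each time. Of the 51 members, 39 passed the filter on low counts and were tested among 18841 genes (edgeR's quasi-likelihood test, adjusted p under 0.05, called higher or lower). At 2 h, 30 members were higher and 1 was lower in WT, where 23.1% of all genes tested were called higher and 19.2% lower, with a median log2 fold change of 3.01 for the members against 0.04 for all genes. At 4 h against 0 h the WT counts were 36 higher and 1 lower (27.8% and 22.2% of all genes; medians 4.21 and 0.06).

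In the mutant, 30 members were higher and 1 lower at 2 h (23.2% and 20.3% of all genes; medians 2.99 and 0.01), and 37 were higher and 1 lower at 4 h (28.1% and 23.1%; medians 4.26 and 0.07). From 2 to 4 h, 14 members rose further in WT and none fell (2.57% and 2.12% of all genes; medians 1.23 and 0.03), and 18 rose further in the mutant and none fell (6.34% and 5.79%; medians 1.69 and 0.06). The filter let some members in only because they were high after dehydration, so these counts do not describe the family before it. Of the 16 members that pass the same filter on the 0 h libraries alone, 13 were higher and 1 lower at 4 h in WT, and 15 and 1 in the mutant. Of the 17265 genes that pass in this way, 25.7% were higher and 24.2% lower in WT, and 25.9% and 25.1% in the mutant. In WT 7 tested members had no count at all in the 4 libraries at 0 h, and 5 in the mutant. With those set to a lower bound (3 counts over the group), the WT medians were 2.44 at 2 h and 4.21 at 4 h.

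**Figure D1:**
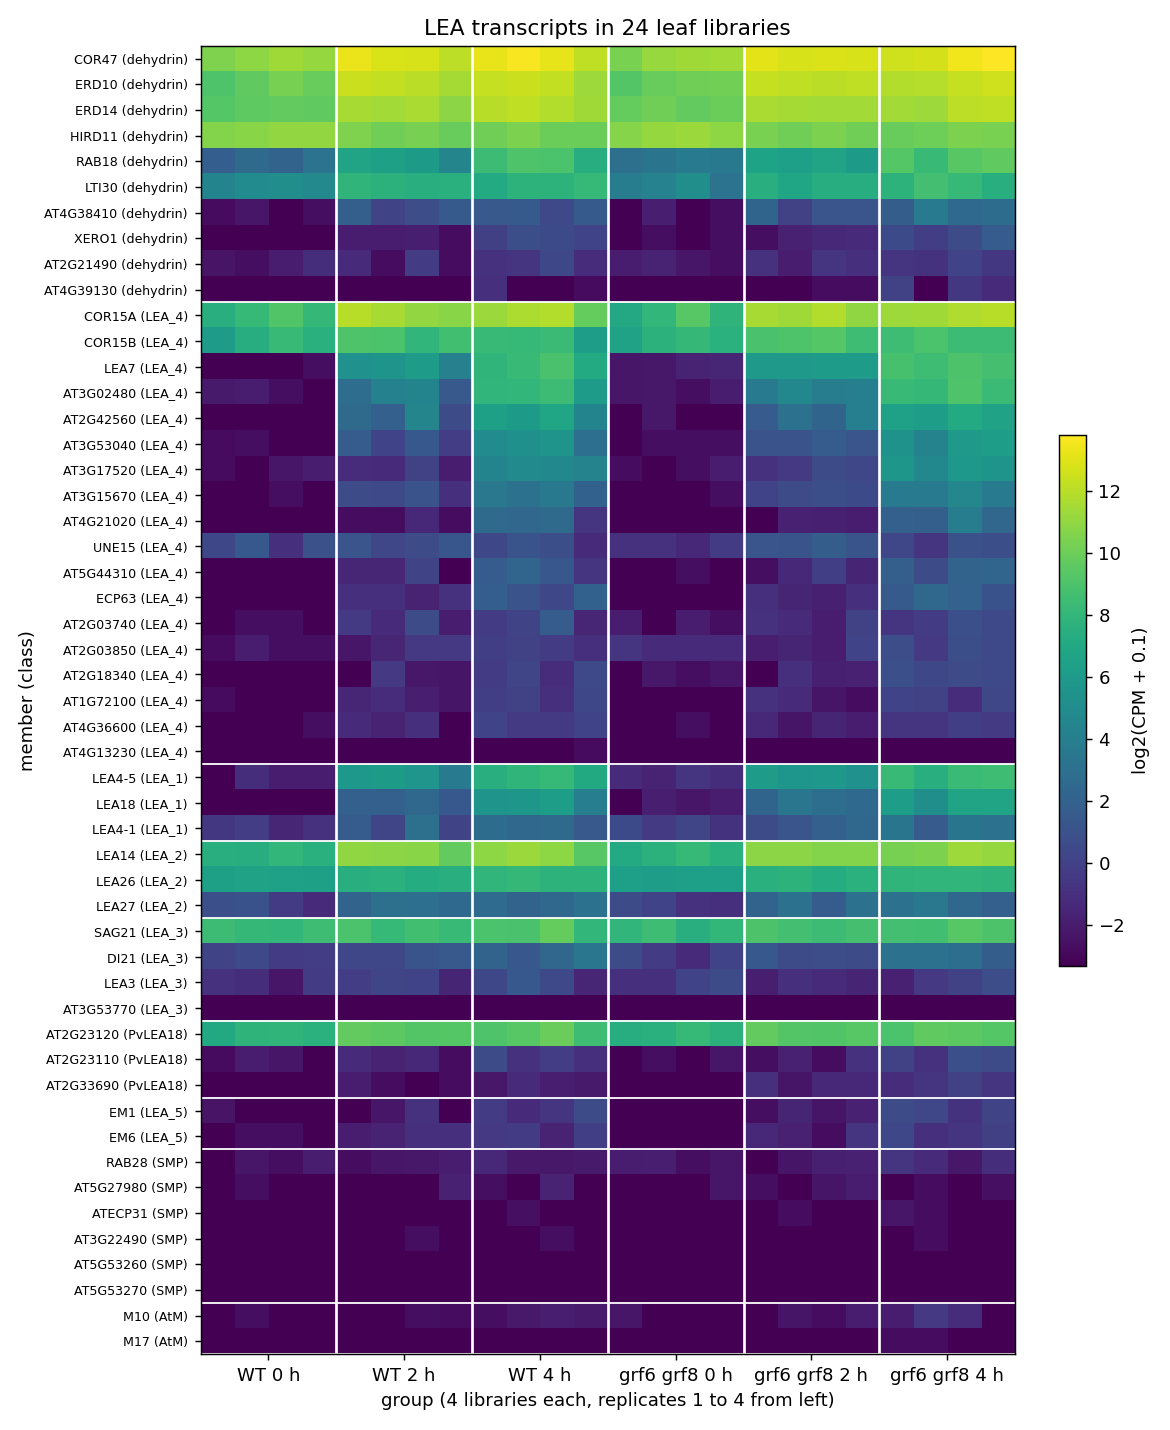
Heat map of log2(CPM + 0.1) of the 51 LEA genes (rows, grouped by class) in the 24 libraries (columns, by genotype and hour). 4 dehydrins (COR47, ERD10, ERD14 and HIRD11) are high already at 0 h, many LEA_4 members go from near 0 to high levels by 4 h, and the SMP and AtM rows stay near the bottom of the scale in every library.

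Levels between genes were compared per transcript length, in the authors' FPKM. Before dehydration the dehydrins led the family: HIRD11 at 2623 ± 293 FPKM, COR47 at 1715 ± 365, ERD14 at 755 ± 66.4 and ERD10 at 585 ± 177 in WT at 0 h. The first 3 neighbours in that order were separated, HIRD11 from COR47 and COR47 from ERD14, while the ranges of ERD14 and ERD10 overlapped. By 4 h COR47 stood at 7109.6 ± 1843 FPKM, above every library of the next member, ERD14 (3575 ± 305). COR15A (3243 ± 1382), ERD10 (2838 ± 490.1) and LEA14 (2251 ± 778) followed, and from ERD14 on each member's range overlapped that of the next. HIRD11, first at 0 h, was behind them at 4 h (1526 ± 245 FPKM).

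Of the 10 dehydrins, 9 were tested, and 8 of these were higher at 4 h than at 0 h in WT and 8 in the mutant. COR47 (AT1G20440, chromosome 1, 7084409 to 7086873, minus strand), an acidic dehydrin first found as a cold-regulated gene, lay at 1434, 1935, 2688 and 2251 CPM in the 4 WT libraries at 0 h, 10197, 7450.3, 7244 and 4373 CPM at 2 h and 9985, 12734, 9247 and 4561 CPM at 4 h. Every dehydrated WT library was above every 0 h library, and the ranges at 2 and 4 h overlapped. The rise was 3.52-fold (95% interval 2.12 to 5.85) by 2 h (log2 fold change 1.82, SE 0.353, adjusted p = 0.000307) and 4.4-fold (95% interval 2.63 to 7.35) by 4 h (log2 fold change 2.14, SE 0.356, adjusted p = 4.45e-05). In grf6 grf8 COR47 read 1312, 2298, 2627 and 2756 CPM at 0 h, 8750.4, 7218, 7645 and 6941 CPM at 2 h and 6031, 6776, 11123 and 14558 CPM at 4 h, again with no overlap between 0 h and later, and rose 4.28-fold (95% interval 2.56 to 7.15) by 4 h (adjusted p = 4.99e-05).

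ERD10 (AT1G20450, chromosome 1, 7087903 to 7089606, minus strand), a close relative that protects proteins from aggregation in vitro, is the neighbour of COR47. The 2 genes lie 1029 bases apart, their coding sequences are 82.3% identical and the longest identical run is 32 bases. Whether reads were shared between them was not tested. ERD10 lay at 546, 793, 1282 and 913 CPM in WT at 0 h, 5699.6, 4877, 4235 and 2883 CPM at 2 h and 5021, 5542, 4898 and 2520.3 CPM at 4 h. The mutant values were 593, 937, 1122 and 1155, then 5154, 4677, 4288 and 4674, then 3666, 3877, 5148 and 6055 CPM. In both genotypes the 2 and 4 h libraries lay above all 0 h libraries and overlapped each other. ERD10 rose 5.01-fold (95% interval 3.22 to 7.79) by 2 h in WT (adjusted p = 4.22e-06) and 4.94-fold (95% interval 3.18 to 7.67) in the mutant (adjusted p = 4.83e-06), and at 4 h it stood 1.02-fold and 0.997-fold relative to 2 h (intervals 0.667 to 1.55 and 0.655 to 1.52).

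ERD14 (AT1G76180, chromosome 1, 28586663 to 28587931, minus strand), another acidic dehydrin, went from 629.9, 767, 843 and 802 CPM in WT at 0 h to 3011, 2851, 3205 and 1853 CPM at 2 h and 4082, 4573, 3659 and 2692 CPM at 4 h. In the mutant it went from 873, 1108, 848 and 992 to 3242, 2935, 2825 and 2849 and then 2786, 2559, 4516 and 4626 CPM. Dehydrated libraries lay above all 0 h libraries in both genotypes, and the 2 and 4 h ranges overlapped. ERD14 rose 3.59-fold (95% interval 2.58 to 4.997) by 2 h in WT (adjusted p = 2.03e-06) and 3.1-fold (95% interval 2.23 to 4.31) in the mutant (adjusted p = 8.77e-06). The step from 2 to 4 h was not called in either genotype (adjusted p = 0.253 and 0.412). Without the 5 libraries of high cell-division score, that step was called for ERD14 in both (adjusted p = 0.0321 and 0.00389).

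RAB18 (AT5G66400, chromosome 5, 26518277 to 26519447, minus strand), the dehydrin most used as a marker of the ABA response, behaved otherwise. It was low at 0 h (3.42 to 9.14 CPM in WT and 7.91 to 12.5 in the mutant), reached 22.6 to 104 and 65.2 to 105 CPM at 2 h, and 166 to 540.1 and 316 to 799 CPM at 4 h. No range overlapped that of another time within a genotype. By 4 h it rose 67.6-fold (95% interval 33.1 to 138) in WT (log2 fold change 6.08, SE 0.496, adjusted p = 5.03e-09) and 57.4-fold (95% interval 28.4 to 116) in the mutant (adjusted p = 6.46e-09), and the step from 2 to 4 h alone was 5.54-fold (95% interval 3.04 to 10.1) in WT (adjusted p = 0.00195). The lowest WT library at 2 h and at 4 h was in each case replicate 4, with a high cell-division score; without the 5 such libraries the WT means were 85.3 CPM at 2 h and 459 CPM at 4 h.

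LTI30, a dehydrin that binds membranes, lay at 20.9 to 35.6 CPM in WT at 0 h, 174 to 243 CPM at 2 h and 144 to 283 CPM at 4 h, and at 9.28 to 34.9, 115 to 183 and 184 to 419 CPM in the mutant. It rose 7.1-fold (95% interval 4.42 to 11.4) by 2 h in WT (adjusted p = 8.57e-07) and 7.94-fold (95% interval 4.92 to 12.8) in the mutant (adjusted p = 5.14e-07), and it was the 1 described member for which WT 4 h replicate 4 was the highest library and not the lowest. HIRD11 (AT1G54410, chromosome 1, 20309473 to 20310850, minus strand), a histidine-rich dehydrin that binds metal ions, was the 1 member that fell. Its libraries read 1596, 1721, 2087 and 2155 CPM in WT at 0 h, 1461, 1129.7, 1260.3 and 905 CPM at 2 h and 1111, 1417, 993 and 992 CPM at 4 h, and every dehydrated library lay below every 0 h library. Mutant libraries read 1679, 2183, 2440.2 and 1955, then 1317, 1119.6, 1368 and 1119, then 927, 1047, 1387 and 1321 CPM, with the same separation. HIRD11 stood at 0.629 of its 0 h level at 2 h (95% interval 0.479 to 0.826, adjusted p = 0.00717) and 0.597 at 4 h (adjusted p = 0.00263) in WT, and at 0.596 and 0.567 in the mutant (adjusted p = 0.00317 and 0.00113).

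The remaining tested dehydrins were low. AT4G38410 averaged 0.0514 CPM in WT at 0 h, 2.26 at 2 h and 2.37 at 4 h, and rose in both genotypes (adjusted p = 8.16e-06 and 3.51e-07 at 4 h). XERO1, which is 75.3% identical to its neighbour LTI30 in coding sequence, averaged 0, 0.131 and 1.2 CPM in WT and rose at both steps in both genotypes. AT2G21490 went in WT from a mean of 0.17 CPM to 0.636 CPM over 4 h and was called higher (adjusted p = 0.0333 in WT and 0.0154 in the mutant). AT4G39130 was too low to test, with at most 18 counts in a library.

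LEA_4 is the largest class, with 18 members, of which 17 were tested; at 4 h, 15 were higher than at 0 h in WT and 17 in the mutant. Its members split between genes already active in unstressed leaves (COR15A and COR15B) and genes under 2 CPM there. COR15A (AT2G42540, chromosome 2, 17710441 to 17712330, minus strand), whose product folds in the chloroplast stroma as water is lost, lay at 176, 289, 564 and 274 CPM in WT at 0 h, 4103, 3104, 2107 and 1726 CPM at 2 h and 2431, 3395, 3779 and 862 CPM at 4 h. The mutant libraries read 133, 265, 675 and 230.5, then 3073, 2666, 3621 and 2043, then 2500.01, 2702, 3490.4 and 4016 CPM. All dehydrated libraries lay above all 0 h libraries of their genotype, and the 2 and 4 h ranges overlapped. The rise by 2 h was 8.48-fold (95% interval 4.14 to 17.4) in WT (log2 fold change 3.08, SE 0.498, adjusted p = 4.6e-05) and 8.75-fold (95% interval 4.27 to 17.95) in the mutant (adjusted p = 4.06e-05).

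COR15B (AT2G42530, chromosome 2, 17708593 to 17710433, minus strand) starts 7 bases past the end of COR15A and shares 83.8% of its coding sequence with it. Its 250-base window (17710434 to 17710683) thus lies almost wholly inside the COR15A gene. COR15B also overlaps AT2G42520 on the opposite strand by 468 bases. Whether the counting used strand is not given in the sources used here, so the counts of COR15B are less certain. It lay at 70.4, 163, 295 and 187 CPM in WT at 0 h, 564, 513, 246 and 397 CPM at 2 h and 311, 294, 333 and 78.6 CPM at 4 h, while the mutant libraries read 94.4, 212, 269 and 201, then 485, 549.7, 635 and 365, then 362, 498, 346 and 350.2 CPM. The WT ranges overlapped between all times, while in the mutant the 0 h libraries lay below the others. COR15B rose 2.4-fold (95% interval 1.32 to 4.36) by 2 h in WT (adjusted p = 0.0177) and 2.62-fold (95% interval 1.44 to 4.76) in the mutant (adjusted p = 0.00988). At 4 h the WT difference from 0 h was not called (0.51 on the log2 scale, adjusted p = 0.317), and the mutant one passed narrowly at 2.004-fold (95% interval 1.11 to 3.62) (adjusted p = 0.0468). Leaving out WT replicate 1 at 0 h, or replicate 1 at 2 h, ended the WT call at 2 h for COR15B (adjusted p = 0.0593 and 0.0534). The mutant call at 4 h ended without replicate 1, 2 or 4 at 0 h or any 1 library at 4 h (adjusted p = 0.0578 to 0.142), and without the 5 libraries of high cell-division score (0.182).

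LEA7 (AT1G52690, chromosome 1, 19619724 to 19621534, plus strand), whose product protects enzymes and membranes during drying in vitro, carried the most ACGTG motifs of the promoters printed above. In WT it lay at 0, 0, 0 and 0.0544 CPM at 0 h, 1 count in all 4 libraries together. At 2 h it read 40.1, 46.8, 72.7 and 17.96 CPM and at 4 h 241, 316, 479.5 and 141 CPM. The mutant libraries read 0.101, 0.111, 0.217 and 0.262 CPM at 0 h, 63.3, 62.2, 69.4 and 67.5 CPM at 2 h and 460.1, 361, 527 and 427 CPM at 4 h. No ranges of different times overlapped in either genotype. The ratio to 0 h in WT was 3489.7 (95% counting interval 626 to 137836) at 2 h and 23139.7 (95% counting interval 4153 to 913968) at 4 h (adjusted p = 1.45e-10 and 8.31e-12). In the mutant the fitted rise was 2474-fold (95% interval 1127 to 5430.1) by 4 h. Between 2 and 4 h alone LEA7 rose 6.63-fold (95% interval 4.04 to 10.9) in WT (adjusted p = 0.00017) and 6.77-fold (95% interval 4.12 to 11.1) in the mutant (adjusted p = 5.38e-05). LEA7 overlaps AT1G52695 by 297 bases on the opposite strand.

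AT3G02480, a small LEA_4 gene, lay at 0 to 0.16 CPM in WT at 0 h, 2.68 to 21.5 CPM at 2 h and 71.2 to 340.5 CPM at 4 h, and at 0.0542 to 0.157, 12.7 to 25.7 and 277 to 544 CPM in the mutant. Most of its rise came after 2 h: 18.8-fold (95% interval 8.84 to 39.9) in WT (adjusted p = 0.00017) and 20.9-fold (95% interval 9.81 to 44.6) in the mutant (adjusted p = 4.5e-05) between 2 and 4 h. AT2G42560 had no count in WT at 0 h, 1.46 to 22.8 CPM at 2 h and 20.9 to 112 CPM at 4 h, which is at least 224-fold and at least 1856-fold higher against a floor of 3 counts over the 0 h group. Its mutant libraries reached 77.1 to 143 CPM at 4 h, and its WT step from 2 to 4 h (adjusted p = 0.015) was lost without WT 2 h replicate 2 (0.0625).

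AT3G53040 lay at 0.779 to 3.08 CPM in WT at 2 h and 7.67 to 47.1 CPM at 4 h, from 2 counts at 0 h, a ratio of 1230.3 (95% counting interval 341 to 10159) at 4 h, and its mutant range at 4 h was 20.1 to 73.7 CPM. AT3G17520 showed the sharpest late step of the described members: 0.146 to 0.899 CPM in WT at 2 h and 19.9 to 29.1 CPM at 4 h, 56.3-fold (95% interval 28.4 to 111) (adjusted p = 7.96e-07). Its mutant libraries lay at 0.444 to 1.52 CPM at 2 h and at 25.2 to 57.5 CPM at 4 h, 48.3-fold (95% interval 25.3 to 92.1) (adjusted p = 5.64e-07). Its early rise in WT (adjusted p = 0.0109 at 2 h) was lost without WT 2 h replicate 3 (0.0729). AT3G15670 was the lowest of the described members, at 3.84 to 12.1 CPM in WT and 12.5 to 24.2 CPM in the mutant at 4 h, from 1 count at 0 h in each genotype, and rose at both steps in both genotypes.

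The other 9 tested LEA_4 genes stayed under 10 CPM in every group mean. AT4G21020 had no count at 0 h in either genotype and averaged 0.108 CPM in WT at 2 h and 4.31 CPM at 4 h, against 0.132 and 6.85 CPM in the mutant; in WT it was higher at 4 h (adjusted p = 2.66e-05) and not at 2 h. ECP63, named for an embryonic cell protein, had none at 0 h in either genotype and averaged 2.64 CPM in WT and 3.55 CPM in the mutant at 4 h, rising at both steps in both. AT5G44310 averaged 2.68 and 3.55 CPM at 4 h in WT and the mutant and was higher than at 0 h in both. AT1G72100, AT2G03740, AT2G03850, AT2G18340 and AT4G36600 averaged 0.624 to 1.40 CPM at 4 h in each genotype and were all higher than at 0 h in both. UNE15 was the exception: it averaged 1.48, 1.75 and 1.31 CPM in WT with no call, and 0.477, 2.36 and 1.28 CPM in the mutant, where it rose by 2 h (adjusted p = 0.00175) and was higher at 4 h (adjusted p = 0.0346). AT4G13230 had 1 count in all libraries together.

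All 3 LEA_1 genes were tested and all were higher at 4 h in both genotypes. LEA4-5 (AT5G06760, chromosome 5, 2089445 to 2090430, minus strand), a gene that promotes tolerance to water deficit in Arabidopsis, lay at 0, 0.374, 0.158 and 0.163 CPM in WT at 0 h, 56.8, 63.9, 48.5 and 13.9 CPM at 2 h and 181, 241, 286 and 134 CPM at 4 h. The mutant libraries read 0.304, 0.223, 0.487 and 0.367, then 68.8, 52.1, 55.3 and 41.4, then 311, 169, 336 and 367 CPM. No ranges of different times overlapped in either genotype. LEA4-5 rose 1214-fold (95% interval 512 to 2879) by 4 h in WT (log2 fold change 10.25, SE 0.599, adjusted p = 6.25e-11) and 839-fold (95% interval 371 to 1901) in the mutant (adjusted p = 6e-11); the step from 2 to 4 h was 4.6-fold (95% interval 2.67 to 7.95) and 5.44-fold (95% interval 3.13 to 9.42).

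LEA18 (AT2G35300, chromosome 2, 14862779 to 14863412, minus strand) had no count in any WT library at 0 h, read 3.8, 3.81, 5.11 and 2.48 CPM at 2 h and 47.6, 53.1, 78.2 and 16.4 CPM at 4 h. This is at least 99.6-fold and at least 1279-fold higher than the floor of 3 counts over the 0 h group. In the mutant it read 0, 0.167, 0.108 and 0.157 CPM at 0 h, 4.55, 10.4, 7.07 and 5.6 CPM at 2 h and 75.9, 38.01, 105 and 103 CPM at 4 h. Within a genotype the libraries of the 3 times did not overlap, and the step from 2 to 4 h was 12.8-fold (95% interval 6.73 to 24.5) in WT (adjusted p = 0.00019) and 11.6-fold (95% interval 6.17 to 21.9) in the mutant (adjusted p = 8.46e-05). LEA4-1, the low member of the class, averaged 0.506, 3.26 and 5.14 CPM in WT and was higher by 2 h in both genotypes.

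The 3 LEA_2 genes, of a class with a folded structure in place of the disorder of the rest, were all tested and all higher at 2 and 4 h in both genotypes. LEA14 (AT1G01470, chromosome 1, 171525 to 172948, minus strand) lay at 173, 162, 267 and 193 CPM in WT at 0 h, 1985, 1841, 1763 and 838 CPM at 2 h and 1914, 2437, 1974 and 654 CPM at 4 h. Its mutant libraries read 142, 208, 284 and 188, then 1844, 1871, 1579.9 and 1574, then 1245, 1409.6, 2599 and 2211 CPM. The 0 h libraries lay below all others, and WT replicate 4 was the lowest library at both later times; without the 5 libraries of high cell-division score the WT means were 1863 CPM at 2 h and 2108 CPM at 4 h. LEA14 rose 8.07-fold (95% interval 4.79 to 13.6) by 2 h in WT (log2 fold change 3.01, SE 0.363, adjusted p = 1.35e-06) and 8.35-fold (95% interval 4.95 to 14.1) in the mutant (adjusted p = 1.23e-06).

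LEA26 (AT2G44060, chromosome 2, 18226263 to 18228293, plus strand) varied little between replicates. It lay at 87.8, 94.8, 88.99 and 87.4 CPM in WT at 0 h, 180.1, 195, 160.2 and 184 CPM at 2 h and 247, 272, 221 and 214 CPM at 4 h, while the mutant libraries read 83.03, 75.2, 81.8 and 81.1, then 192, 218, 158 and 195, then 234, 255, 246 and 223 CPM. The 3 times did not overlap in either genotype. LEA26 rose 2.005-fold (95% interval 1.72 to 2.34) by 2 h and 2.66-fold (95% interval 2.27 to 3.11) by 4 h in WT (adjusted p = 3.24e-07 and 2.66e-09), and 2.98-fold (95% interval 2.55 to 3.49) by 4 h in the mutant (adjusted p = 5.76e-10). The step from 2 to 4 h, 1.33-fold in WT and 1.26-fold in the mutant, passed narrowly (adjusted p = 0.0312 and 0.0477) and was lost in WT without any 1 of the 4 libraries at 2 h or without replicate 1 or 2 at 4 h (adjusted p = 0.0507 to 0.155), and in the mutant without replicate 1, 3 or 4 at 2 h or any 1 library at 4 h (adjusted p = 0.078 to 0.232). LEA27, the low LEA_2 gene, averaged 1.17 CPM in WT at 0 h, 6.41 at 2 h and 6.02 at 4 h.

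Of the 4 LEA_3 genes, 3 were tested. SAG21 (AT4G02380, chromosome 4, 1046042 to 1047105, minus strand), a mitochondrial member known from senescence and oxidative stress, changed little for this family. It lay at 345, 276, 259 and 355 CPM in WT at 0 h, 491, 288, 399 and 304 CPM at 2 h and 511, 485, 876 and 262 CPM at 4 h, while the mutant libraries read 251, 363, 176 and 267, then 525, 407, 347 and 435, then 418, 403, 676 and 537 CPM. In WT the ranges overlapped at all times. A microRNA gene, AT4G04125, shares 180 bases with SAG21 on the same strand. SAG21 was higher at 4 h than at 0 h, 1.73-fold (95% interval 1.15 to 2.61) in WT (adjusted p = 0.026) and 1.92-fold (95% interval 1.27 to 2.9) in the mutant (adjusted p = 0.0089), and the call was lost without any 1 of WT 0 h replicates 2 and 3 and WT 4 h replicate 3 (adjusted p = 0.0734, 0.0832 and 0.187), and in the mutant without 0 h replicate 3 (0.0505). DI21, named as a drought-induced gene, averaged 0.948 CPM in WT at 0 h, 1.78 at 2 h and 5.63 at 4 h, and 0.891, 1.72 and 6.8 in the mutant. It rose only after 2 h in both (adjusted p = 0.0374 and 0.00716 between 2 and 4 h). LEA3 went in WT from a mean of 0.408 CPM to 1.34 CPM over 4 h (adjusted p = 0.0445); its mutant means were 0.823 and 0.826 CPM (adjusted p = 0.994). AT3G53770 had no count in any library.

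The PvLEA18 class has 3 members and 2 were tested. AT2G23120 (chromosome 2, 9841842 to 9842634, plus strand), which overlaps AT2G23118 by 144 bases on the opposite strand, lay at 136, 228, 242 and 202 CPM in WT at 0 h, 841, 734, 592 and 635 CPM at 2 h and 542, 659.8, 965 and 359.6 CPM at 4 h, while the mutant libraries read 164, 189.98, 285 and 208, then 820.4, 598, 584 and 666, then 491, 795, 741 and 647 CPM. All dehydrated libraries lay above the 0 h libraries, and the 2 and 4 h ranges overlapped in both genotypes. AT2G23120 rose 3.47-fold (95% interval 2.39 to 5.03) by 2 h in WT (adjusted p = 1.28e-05) and 3.15-fold (95% interval 2.17 to 4.57) in the mutant (adjusted p = 3.14e-05). Its neighbour AT2G23110, 75.8% identical in coding sequence, averaged only 0.768 CPM in WT at 4 h (adjusted p = 0.00305 against 0 h). AT2G33690 had at most 16 counts in a library. It had none at 0 h in either genotype, and 2 to 5 in WT and 7 to 16 in the mutant at 4 h.

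Early and late risers were told apart by the calls at each step. A member called higher at 2 h but not between 2 and 4 h was termed early, one called at both steps still rising, and one called between 2 and 4 h and over 4 h but not at 2 h late. The 20 tested members that reached 10 CPM in at least 1 group fell into 8 early (COR47, ERD10, ERD14, LTI30, LEA14, COR15A, COR15B and AT2G23120), 10 still rising (RAB18, LEA7, LEA18, LEA4-5, LEA26, AT2G42560, AT3G02480, AT3G15670, AT3G17520 and AT3G53040), 1 lower (HIRD11) and 1 not called at either step (SAG21). The class was the same in WT and in grf6 grf8 for 20 of these 20, and for 31 of all 39 tested members. Over all 39, WT had 18 early, 12 still rising, 2 late (DI21 and AT4G21020), 1 lower and 6 not called, and the mutant had 15, 15, 3 (DI21, AT2G18340 and AT2G23110), 1 and 5. Among WT early members under 10 CPM the 2 h mean was 14.8% (AT5G44310) to 106% (LEA27) of the 4 h mean. There the label rests on calls at low counts and does not mean that most of the rise came by 2 h.

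**Figure D2:**
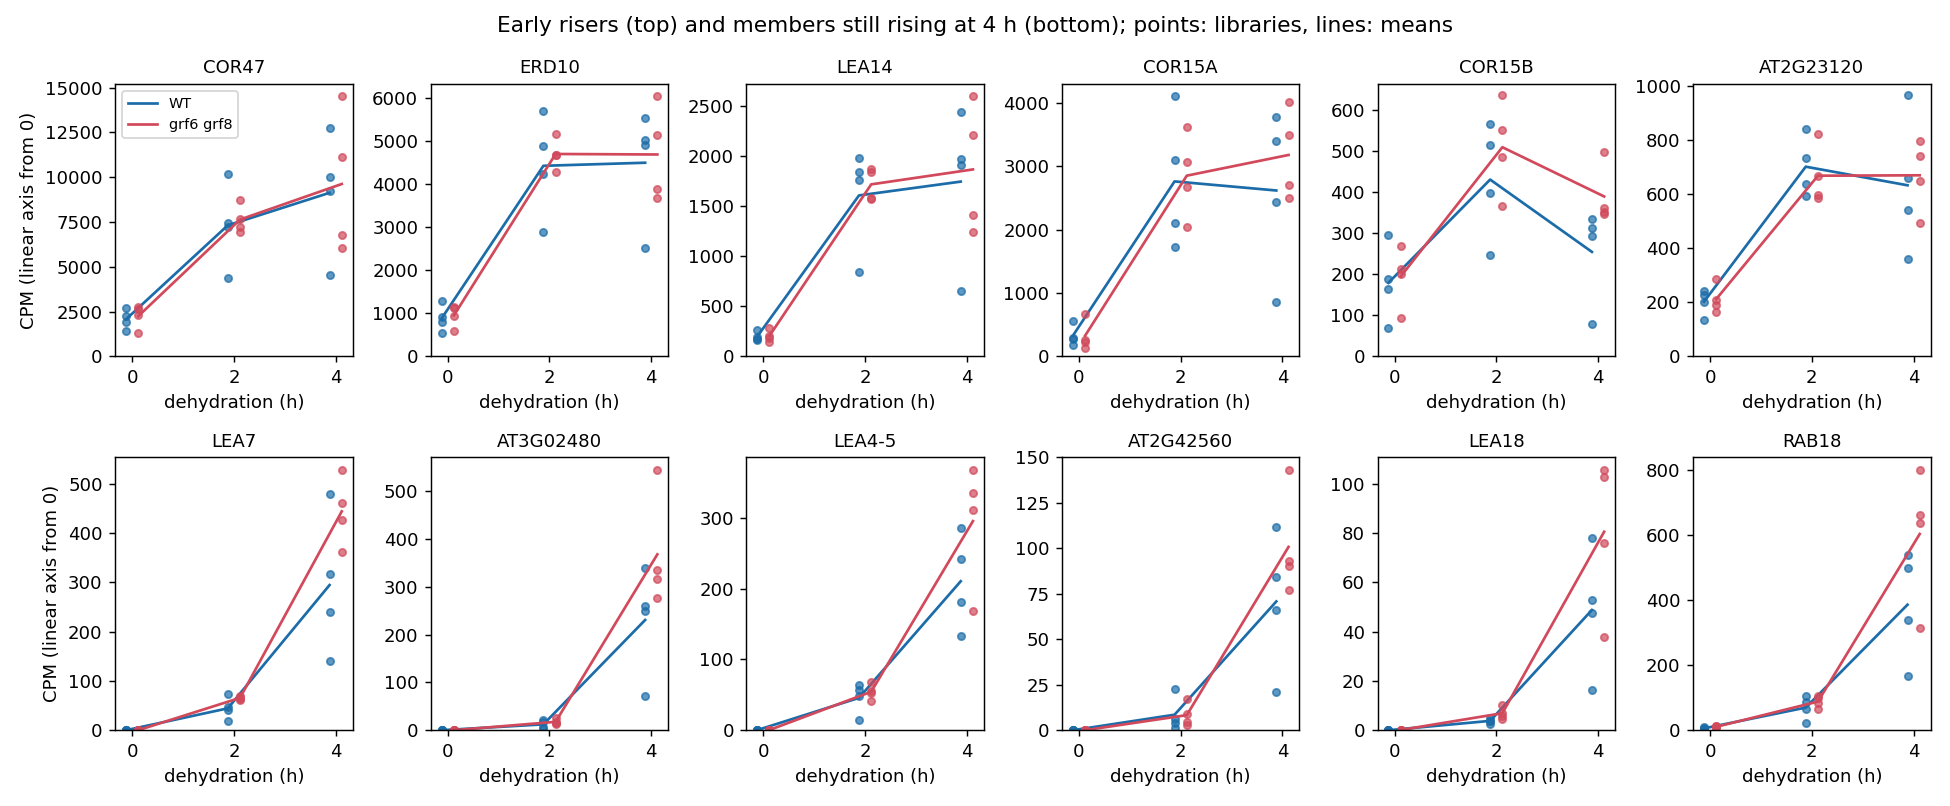
CPM (linear axes, each starting at 0) against hours of dehydration for 6 early members (top) and 6 still rising members (bottom). Points are libraries and lines join the means of the 4 libraries per genotype. The early members reach most of their 4 h level by 2 h in both genotypes, and the still rising members gain most of theirs between 2 and 4 h.

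Among the 20 members at 10 CPM or more, the early and still rising ones started from different levels. These levels are part of the contrasts that sorted them and are given as a description. In WT at 0 h the 8 early members averaged 28.7 to 2077 CPM, and none was under 1 CPM. The 10 still rising members averaged 0 to 89.7 CPM, and 8 were under 1 CPM. In the mutant the ranges were 19.8 to 2248 CPM and 0.0131 to 80.3 CPM, again with 8 of 10 under 1 CPM. Low early members started low: those under 10 CPM averaged 0 (AT2G18340 and AT5G44310) to 1.17 CPM (LEA27) in WT at 0 h. The 2 h mean, as a share of the 4 h mean, was 72.8% to 169% among the 8 early members in WT. Among the 10 still rising members it was 1.78% to 75.4%. In the mutant the shares were 56.9% to 131% and 2.04% to 79.6%. LEA26 held the upper end among these still rising members in both genotypes. In the 250-base windows, ACGTG stood in 9 of the 10 still rising members and 3 of the 8 early members, and CCGAC in 8 of 10 and 2 of 8; the windows of LEA7, still rising, and COR47, early, are printed above. In 500-base windows the counts for ACGTG were 10 of 10 and 4 of 8, and for CCGAC 10 of 10 and 5 of 8. Over all nuclear protein-coding genes 35.52% and 21.41% of such windows held them. The 250-base window of COR15B, 1 of the 8, lay almost wholly inside COR15A. Of the 19 tested members under 10 CPM, early LEA4-1 among them, 17 held ACGTG and 6 held CCGAC within 250 bases. The difference in ACGTG therefore describes only the members at 10 CPM or more. The 20 members were sorted with the results in hand, so these shares are given with no test.

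The sorting in WT changed with the libraries in the fit. When each comparison was fitted on its own groups alone, 11 of the 18 members tested in both steps in WT kept their class, and LEA7, LEA4-5, LEA26, RAB18, AT2G42560, AT3G02480 and AT3G53040 became early. Under the other alternatives, and in the mutant throughout, 17 to 20 members kept theirs.

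Seed members stayed near 0 in these leaves. EM1 (AT3G51810, chromosome 3, 19214722 to 19215831, plus strand) and EM6, the 2 LEA_5 genes, which ABI5 controls in seeds, were tested but low. EM1 averaged 0.0222 ± 0.0444 CPM in WT at 0 h, 0.138 ± 0.213 at 2 h and 0.748 ± 0.473 at 4 h, and 0, 0.146 and 1.02 in the mutant. The means of EM6 over the same times were 0.0265, 0.286 and 0.589 CPM in WT, with 0, 0.263 and 0.74 CPM in the mutant. Both were higher at 4 h than at 0 h (EM1 adjusted p = 0.00166 in WT and 0.000202 in the mutant; EM6 0.000372 and 2.83e-05), from a total of 2 counts each at 0 h in WT. The ratio to 0 h at 4 h was 29.4 (95% counting interval 8.14 to 243) for EM1 and 23.1 (95% counting interval 6.41 to 191) for EM6 in WT.

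None of the 6 seed maturation protein (SMP) genes and neither of the 2 AtM genes passed the filter. Among the SMP genes, RAB28 had at most 10 counts in a library, AT5G27980 at most 4, ATECP31 at most 2, AT3G22490 at most 1, and AT5G53260 and AT5G53270 had no count in any of the 24 libraries. Of the AtM genes, M10 had at most 13 counts and M17 at most 1. Some of these genes are similar copies. AT5G53260 and AT5G53270 are 89.0% identical in coding sequence, with a longest identical run of 99 bases. AT3G22490 and ATECP31 are 85.2% identical (longest run 38 bases), and M10 and M17 90.3% over the aligned part (21 bases). Whether reads were split between copies was not tested. These genes were not tested, and at so few counts a difference between groups could be missed. M10 lay at 0 to 0.0534 CPM in WT at 0 h and 0.0563 to 0.175 CPM at 4 h, while its mutant ranges overlapped.

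A list of 15 seed and embryo genes was set beside these values. Of the 15, 7 had no count in any library, the regulator ABI3 and the storage proteins CRA1 and CRU3 among them, and 2 were tested, the oleosin gene OLEO4 and the 2S albumin gene SESA1. The summed level of the list was at most 0.532 CPM in every 0 h library. It reached 22.7 CPM in WT 4 h replicate 4 and 11.4 CPM in WT 2 h replicate 4, with OLEO4 at 12.5 CPM and SESA1 at 9.66 CPM in the first, and 6.99 and 3.59 CPM in grf6 grf8 4 h replicates 2 and 1; these 4 libraries are among the 5 of highest cell-division score. The other dehydrated libraries were at most 3.09 CPM. The part of seed RNA in the low LEA values was not tested.

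Known regulators of LEA genes were followed as a list of 17 genes: the ABF and ABI factors, the CBF and DREB factors, 3 SnRK2 kinases that activate the ABFs, and NCED3, the rate-limiting enzyme of ABA synthesis. ABI3 and ABI4 had no count, and 15 were tested. In WT 7 rose and 4 fell by 2 h (23.1% and 19.2% of all genes tested), and 8 rose and 5 fell by 4 h (27.8% and 22.2%). In the mutant 8 rose and 3 fell by 2 h (23.2% and 20.3%), and 9 rose and 4 fell by 4 h (28.1% and 23.1%). ABF2 averaged 14.9 ± 2.09 CPM in WT at 0 h, 149 ± 42.5 at 2 h and 251 ± 64.9 at 4 h (log2 fold change 4.07 over 4 h, adjusted p = 8.64e-11). ABF3 averaged 73.3 ± 14.7, 472 ± 107 and 819.8 ± 248 CPM and also rose.

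ABI5 rose at both steps in both genotypes, from 1.4 ± 0.432 CPM in WT at 0 h to 7.91 ± 1.04 at 2 h and 23.3 ± 17.3 at 4 h. DREB2A did the same, at 8.51 ± 1.38, 54.03 ± 17.9 and 137 ± 77.3 CPM in WT. NCED3 stood at 62.8 ± 14.6, 286 ± 93.2 and 335 ± 56.4 CPM in WT and rose by 2 h. The kinase gene OST1 rose only after 2 h (8.81 ± 1.18 to 16.6 ± 2.3 CPM in WT, adjusted p = 0.00276). The cold factors CBF1 and CBF2 fell over 4 h in WT. CBF1 went from 13.3 ± 6.07 to 1.86 ± 0.406 CPM and CBF2 from 10.5 ± 2.53 to 2.73 ± 0.243 CPM. They were not the only regulators to fall, since 5 of the 15 tested did so by 4 h in WT. No regulator was called between the genotypes at any time.

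The genotypes were then compared at each time. No LEA member was called between grf6 grf8 and WT at 0, 2 or 4 h by edgeR's test, and none by DESeq2; over all genes, 0.00531% were called higher and 0.0212% lower in the mutant at 0 h, 0% and 0.0212% at 2 h, and 0.00531% and 0.0106% at 4 h. At an unadjusted p under 0.05, 6 of the 39 members passed at 0 h, 1 at 2 h and 2 at 4 h, where 2.9%, 2.72% and 3.88% of all genes tested passed. The median log2 difference of the 39 members was 0.07 at 0 h, 0.08 at 2 h and 0.41 at 4 h, against 0.01, -0.01 and 0.01 for all genes. At 4 h the difference was above 0 in 33 of 39 members, and 18 of the 20 described members. It cannot be read as 33 separate results, since the members share libraries: WT 4 h replicate 4 was the lowest WT library for 28 of the 39. In the mutant at 4 h, replicates 2 and 1 were the lowest for 20 and 10 of the 39. Without the 5 libraries of highest cell-division score, the 4 h difference was above 0 in 32 of 39 members. Without WT 4 h replicate 4 alone it was above 0 in 25 of 39. Leaving out any other single 4 h library gave 26 to 34 of 39, with 26 and 27 without mutant replicates 4 and 3. The number of members above 0 thus depended on the libraries kept.

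For the main dehydrins the mutant stood at 4 h, relative to WT, at 1.05 (95% interval 0.644 to 1.72) for COR47, 1.04 (95% interval 0.685 to 1.59) for ERD10, 0.965 (95% interval 0.701 to 1.33) for ERD14 and 1.56 (95% interval 0.885 to 2.76) for RAB18. For LEA14 the ratio was 1.07 (95% interval 0.659 to 1.74) and for LEA26 1.004 (95% interval 0.861 to 1.17). LEA7 stood at 1.51 (95% interval 0.946 to 2.4), LEA4-5 at 1.4 (95% interval 0.832 to 2.37) and LEA18 at 1.65 (95% interval 0.934 to 2.92). COR15A stood at 1.21 (95% interval 0.626 to 2.36) and COR15B at 1.53 (95% interval 0.849 to 2.76). Each of these intervals includes 1, and those of COR15A, COR15B, RAB18, LEA7, LEA4-5 and LEA18 reach past 2, so a 2-fold difference was not excluded for them.

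Of the 39 tested members, those whose libraries did not overlap between genotypes were 4 at 0 h (LEA7, ERD14, AT2G03850 and LEA26), none at 2 h and 3 at 4 h (COR15B, AT3G15670 and AT4G38410), named here after their values were seen; over all genes tested, 3.38%, 3% and 1.59% separated in this way. AT2G33690, too low to test, also did not overlap at 4 h. ERD14 was at 629.9 to 843 CPM in WT and 848 to 1108 CPM in the mutant at 0 h (unadjusted p = 0.154). AT4G38410 averaged 2.37 CPM in WT and 7.37 CPM in the mutant at 4 h, with a log2 difference of 1.63 (SE 0.547, unadjusted p = 0.00704, adjusted p = 0.99998). AT3G17520 passed the unadjusted threshold at both 2 and 4 h, higher in the mutant by 1.16 and 0.94 on the log2 scale (adjusted p = 1 and 0.99998), with overlapping libraries each time. None of these passes the adjustment over all genes.

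**Figure D3:**
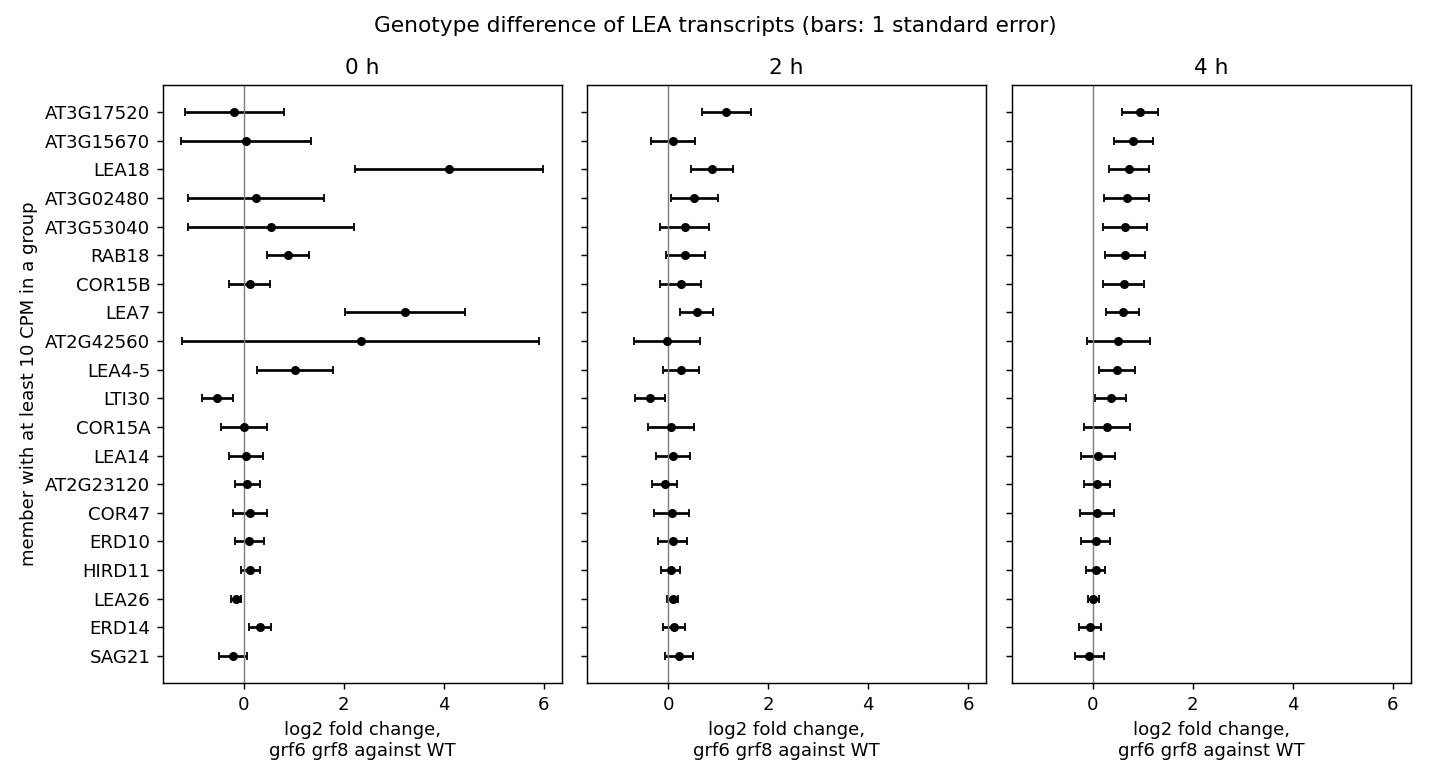
Log2 fold change of grf6 grf8 against WT (x axis, points, with bars of 1 SE) for the 20 described members at 0, 2 and 4 h of dehydration. Most points lie within 1 of 0, the widest bars belong to members with few counts at 0 h, and at 4 h 18 of 20 points lie above 0.

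The difference between genotypes in the dehydration response was tested directly. No member was called for the 2 h response (0.00531% of all genes higher, 0% lower), for the 4 h response (0.00531% and 0%) or for the step from 2 to 4 h (0% and 0%), and none by DESeq2. At an unadjusted p under 0.05, 4 members passed for the 2 h response (LEA3, LEA7, AT2G03850 and UNE15), 2 for the 4 h response (LEA7 and UNE15) and none for the step, where 2.48%, 2.38% and 2.18% of all genes tested passed. For LEA7 the difference in the 2 h response was -2.65 on the log2 scale (mutant minus WT), with the WT 0 h level resting on 1 count. For UNE15 it was larger in the mutant by 2.05 (SE 0.732), where UNE15 overlaps AT4G06105 by 221 bases and AT4G06110 by 125 bases.

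Summed LEA level and cell-division score were compared within groups. In 5 of the 6 groups the library with the highest score had the lowest summed LEA level; the exception was grf6 grf8 at 2 h. In WT at 4 h the sums were 27553, 33625, 29081 and 14098 CPM, with replicate 4, of score 2.08, the lowest. At 2 h in WT they were 29017, 23429, 21657 and 14372 CPM, again lowest in replicate 4. In grf6 grf8 at 4 h they were 20937 and 22093 CPM in the libraries of score 2.16 and 1.70, and 33081 and 37036 CPM in the other 2. WT 4 h replicate 4 was the lowest of its group for 19 of the 20 described members, and WT 2 h replicate 4 for 15 of 20. The summed cell-division list reached 81.8 CPM in the WT 4 h group and 82.3 CPM in the mutant 4 h group, from a lowest library of 11.6 and 12.9 CPM.

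**Figure D4:**
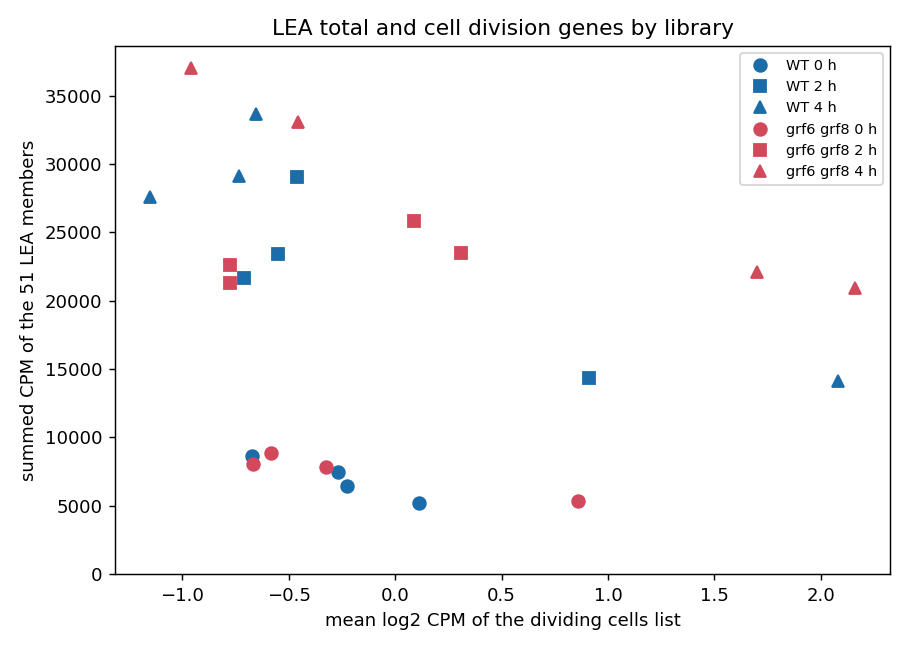
Summed CPM of the 51 LEA genes (y axis) against the cell-division score (x axis, mean log2 CPM of the 16 tested cell-division genes) for each of the 24 libraries, by genotype and hour. At 4 h the 3 libraries with a score above 1 lie at 14098 to 22093 CPM and the other 5 at 27553 to 37036 CPM.

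Without the 5 libraries of highest score, no called dehydration result of the 20 described members changed direction, and 0 members were called between genotypes. The members' median genotype difference was then 0.26 at 0 h, -0.06 at 2 h and 0.42 at 4 h, in place of 0.07, 0.08 and 0.41, and 7 of 39 members passed an unadjusted p under 0.05 at 4 h (4.51% of all genes), in place of 2. With the score as a covariate the median at 4 h was 0.50, the difference was above 0 in 36 of 39 members, and 13 passed an unadjusted p under 0.05 (12.7% of all genes), with 0 members and 0.196% of all genes called. When the 5 libraries were left out, ERD14 became still rising in both genotypes, and COR47 became still rising and SAG21 early in the mutant. COR47 then averaged 10655 CPM in WT (3 libraries) and 12840.5 CPM in the mutant (2 libraries) at 4 h. The part of the cell-division genes in the LEA levels beyond these values was not tested.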

How the data were processed

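Total RNA from rosette leaves was poly(A)-selected and sequenced (NEBNext Ultra libraries, per the labels' protocols). The deposited values are expected counts per gene, rounded to whole numbers by the authors, and FPKM computed by the authors, as the files hold them. Tools named in the submitters' processing notes were RSEM, HISAT2, edgeR and DESeq2 without versions, and Bowtie2 2.2.8, fastp 0.18.0 and StringTie 1.3.1, with the TAIR10 build; the role of each, and whether counting used strand, is not given in the sources used here. The 24 libraries held 17365357 to 22380487 counts, and within-group library pairs differed by at least 14.6 times sampling noise (chi-square per degree of freedom), so none was a duplicate.

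Counts were analysed in R 4.3.3 with edgeR 4.0.16 (filterByExpr, TMM scaling, 1 quasi-likelihood fit over the 6 groups, two-sided, Benjamini-Hochberg adjustment over all 18841 genes tested, threshold 0.05; common dispersion 0.108). That common dispersion, shared over all genes, equals a spread between libraries of 32.9% of the level, and single genes varied less or more. Intervals are at 95% and are wide for low genes. CPM use TMM-scaled totals; FPKM served only to compare levels between genes. Intervals and floors of low counts (3 counts) cover counting error only. Alternatives were RLE scaling, DESeq2 1.42.0, 2 other filters, the replicate number as a block, only the groups compared, leaving out libraries, and the cell-division score as a covariate; leaving out 5 libraries by that score was chosen after seeing the data. On simulated counts with 200 genes changed, the WT 4 h against 0 h fit over 18841 genes recovered 80.3% of 4-fold and 41.8% of 2-fold changes. For grf6 grf8 against WT at 4 h the shares were 89.4% and 44.8%. In the data 27.8% of genes were called higher and 22.2% lower in WT at 4 h against 0 h. That is far more than the 200 changed in the simulation, so its shares may not hold for that comparison.

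Members and lists were chosen with earlier results of these data known. Tested members averaging at least 10 CPM in 1 group were described by library or range, and up to 3 per class with the highest group mean in full. Coordinates and promoter sequences were taken from RefSeq's TAIR10.1 by gene identifier (Python 3.11.15, Biopython 1.88); 51 of 51 members and 26719 of 27664 genes matched. Classes are those of Hundertmark and Hincha.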

Additional observations from a re-analysis of the deposited data

Results flagged for a closer look

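Of the 120 sets of 4 libraries formed by the 20 described members in the 6 groups, 3 held a library far from the other 3 by Dixon's 95% critical value; chance alone marks about 1 set in 20. COR15B stood at 78.6 CPM in WT 4 h replicate 4, against 294 to 333 CPM in the other 3 libraries of that group. That library also had the second highest cell-division score, 2.08. In grf6 grf8 4 h replicate 2 COR15B stood at 498 CPM, against 346 to 362 CPM in the others. AT3G15670 stood at 24.2 CPM in grf6 grf8 4 h replicate 3, against 12.5 to 13.5 CPM in the others. The part of the cell-division genes or of reads shared between COR15B and COR15A in these values was not tested.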

How the results depend on the processing

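No count of LEA members changed direction under any alternative run. A filter that kept genes averaging 5 CPM or more and passing 1 CPM in 4 or more libraries left 19 members, of which 17 were higher at 2 h, 17 at 4 h and 9 between 2 and 4 h in WT, and 17, 18 and 9 in the mutant. With only the groups compared in the fit, 19 members were higher at 2 h in WT (24 tested) and 3 between 2 and 4 h (LEA18, AT3G17520 and XERO1; 34 tested), against 30 and 14. In that fit 0.212% of all genes were called between 2 and 4 h in WT, against 2.57% higher and 2.12% lower in the fit over all 6 groups. Without the libraries of cell-division score over 1, without the 5 over 0.5, or with the score as a covariate, 2 members were lower at 2 h in the mutant, HIRD11 and LEA3, in place of 1; with the covariate 27 members rose between 2 and 4 h in the mutant, against 18, with 30.9% of all genes called in either direction, against 6.34% higher and 5.79% lower. Leaving out 1 library gave 29 to 30 higher at 2 h, 33 to 36 at 4 h and 11 to 15 between them in WT, and 28 to 30, 34 to 36 and 14 to 16 in the mutant, with 1 lower at 2 h and at 4 h in each, and 0 in every genotype comparison and difference of responses. For the described members, leaving out 1 library kept the call in 748 of the 776 results that were called and ended it in 28, and of the 1624 that were not called it made 1 call.

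With the replicate number as a replicate block, 30, 35 and 13 members were higher in WT and 31, 36 and 17 in the mutant, with 0 in every genotype comparison. Libraries of the same number did not deviate together (mean correlation -0.0134 over 60 pairs, 0.00537 over the 180 other pairs), so the numbers were not taken as pairs. Counts limit the low members: 12 were not tested, and 15 of the tested had 3 counts or fewer in WT at 0 h.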
